A study of Mus musculus with 8 samples.

Results

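Glycosaminoglycans, the long sugar chains of the matrix, are taken up by cells and cut down in the lysosome by a series of enzymes, each of which removes or cleaves what the one before it left exposed. Gusb encodes beta-glucuronidase, which removes glucuronic acid from the chain end, and its loss causes mucopolysaccharidosis VII (MPS VII), in which heparan, dermatan and chondroitin sulfates pile up in lysosomes and, in the mouse model, the ascending aorta widens. Gusb and 7 other enzymes of the same work were followed here: Hyal1, Hexa, Naglu, Sgsh, Ids, Arsb and Glb1. All probes whose platform annotation carries one of these 8 symbols were taken, which gave 12 of the 25697 probes in the table (8 of 16110 gene symbols).

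RNA of the ascending aorta from 8 mice was hybridised to Illumina expression arrays, 1 array per mouse, and each title names a separate animal. All mice carry the strain label C57BL/6. The normal group holds 3 mice (5.8, 6.4 and 7 months, 2 females and 1 male), the MPS VII group without dilatation 2 (5.8 and 6.7 months, 1 female and 1 male) and the MPS VII group with a dilated aorta 3 (7.8, 9.1 and 6 months, 2 females and 1 male). The labels give the genotype as MPS VII and name no Gusb allele, no carrier status of the normal mice and no diameter that defines dilatation.

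Of the 12 probes, 7 rose above background on at least 2 arrays and were tested, and they cover 6 of the 8 genes. An array value counted as above background past an intensity of 25.6, a bound set from the values below 0. The 5 other probes are the only probes of Sgsh and Arsb, the dimmest of 3 Gusb probes and 2 of 3 Ids probes. Differences are given on the scale log2(intensity + 50), which understates the change of dim probes, and a probe passed the test when limma's two-sided p, Benjamini-Hochberg adjusted over all 12913 probes tested, was under 0.05.

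The promoters of the 4 enzymes whose probes passed in dilated minus normal are shown first, because 2 of these genes were higher and 2 lower. Each is the RefSeq window from 250 bases before to 50 after the gene's start (build GRCm38.p6), all 8 enzymes matched, and capitals mark the GC box GGGCGG and the E-box CACGTG on either strand.
Gusb (chr5:130003000-130003299, minus strand): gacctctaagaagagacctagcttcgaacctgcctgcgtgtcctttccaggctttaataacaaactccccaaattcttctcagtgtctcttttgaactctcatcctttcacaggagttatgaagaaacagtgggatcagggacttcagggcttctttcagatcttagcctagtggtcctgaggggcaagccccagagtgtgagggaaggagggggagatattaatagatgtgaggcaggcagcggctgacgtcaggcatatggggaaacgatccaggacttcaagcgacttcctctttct
Hyal1 (chr9:107576700-107576999, plus strand): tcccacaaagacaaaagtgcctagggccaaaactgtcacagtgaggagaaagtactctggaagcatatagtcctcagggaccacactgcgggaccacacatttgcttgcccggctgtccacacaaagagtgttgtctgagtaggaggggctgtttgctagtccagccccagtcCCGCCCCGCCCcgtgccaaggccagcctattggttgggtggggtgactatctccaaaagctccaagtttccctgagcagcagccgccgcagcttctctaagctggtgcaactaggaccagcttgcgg
Hexa (chr9:59539290-59539589, plus strand): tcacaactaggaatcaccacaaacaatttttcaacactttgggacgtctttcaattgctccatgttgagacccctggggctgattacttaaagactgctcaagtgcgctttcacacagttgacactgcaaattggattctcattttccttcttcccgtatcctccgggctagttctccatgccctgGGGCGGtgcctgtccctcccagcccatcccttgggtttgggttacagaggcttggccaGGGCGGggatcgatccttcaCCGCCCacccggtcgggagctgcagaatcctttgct
Naglu (chr11:101069844-101070143, plus strand): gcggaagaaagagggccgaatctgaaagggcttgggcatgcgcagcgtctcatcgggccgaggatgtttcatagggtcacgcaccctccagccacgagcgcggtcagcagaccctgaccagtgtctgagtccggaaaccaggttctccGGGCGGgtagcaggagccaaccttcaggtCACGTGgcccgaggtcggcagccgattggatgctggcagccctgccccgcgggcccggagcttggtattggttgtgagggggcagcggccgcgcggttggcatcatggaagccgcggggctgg
The E-box CACGTG, the core of the element that lysosomal transcription factors of the TFEB family bind, was present in 3 of the 8 windows, against 7.15% of 32851 windows. Those 3 belong to Naglu, Sgsh and Glb1, with the first base at -73, -29 and -48 from the start. The GC box was present in 6 of 8, against 35.7% of the 32851 windows, and the 2 copies in Hyal1, at -77 and -72, overlap. The 32851 windows do not cover every chromosome. The related TCATGTG was in 0 of 8 windows, against 3.77%. These are matches of letters in a short window, on both strands, and are no measure of binding.

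Gusb was lower in every MPS VII aorta than in every normal one. On probe 6180678 the 3 normal aortas read 1094, 992 and 1172 intensity units, the 2 MPS VII aortas without dilatation 112 and 125, and the 3 dilated aortas 190, 218 and 184. The 3 groups did not overlap, and the mean was 18.2% of normal with dilatation and 10.9% without. Over all probes, the dilated group was apart from normal for 41%, the not dilated group for 50.1%, and the MPS VII groups from each other for 26%. The group means were 1086 ± 90.2 (SD, n = 3), 197 ± 17.7 (n = 3) and 118 ± 9.64 (n = 2) in the order normal, dilated and not dilated. The log2 difference was -2.20 in dilated minus normal (SE 0.12, limma adjusted p = 0.000133) and -2.75 in not dilated minus normal (SE 0.14, limma adjusted p = 7.05e-05). In both comparisons it had the smallest p of the 12913 probes. By size of the fall it ranked 12 in the first and 2 in the second. All 5 MPS VII arrays remained above background on this probe.

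The other Gusb probes were dim. Probe 7200333 read 35.0 to 45.8 in normal, 27.2 and 32.7 without dilatation and 31.6 to 40.8 with it, all close to the background bound. Its log2 difference from normal was -0.07 with dilatation (limma adjusted p = 0.706) and -0.19 without (limma adjusted p = 0.334). Probe 1190193 passed background on 1 array, normal replicate 2, at 33.8. The annotation assigns all 3 probes to the same RefSeq transcript, and where each lies on it is not given in the sources used here.

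**Figure D1:**
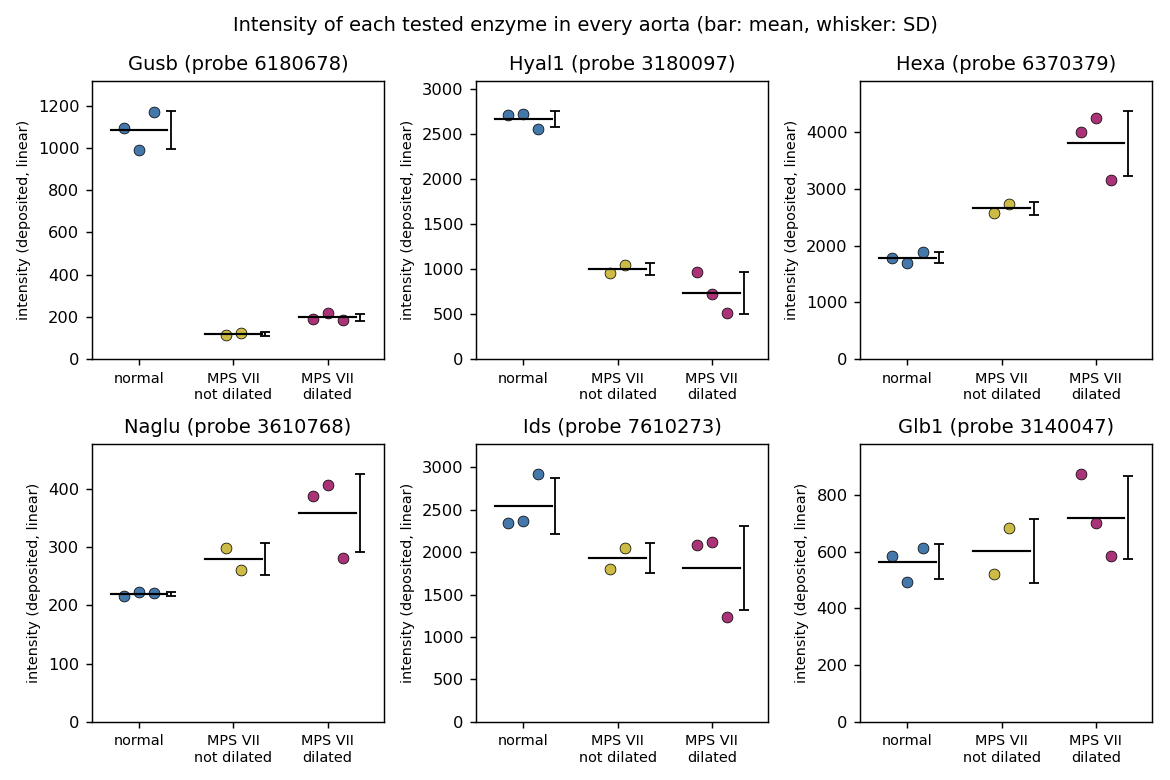
Deposited intensity on a linear axis from 0 (vertical) in each of the 3 groups (horizontal) for the brightest probe of the 6 measurable enzymes. Each point is the aorta of 1 mouse, the bar is the group mean and the whisker the SD; Gusb and Hyal1 lie far below normal in all 5 MPS VII aortas, Hexa and Naglu lie above it, and the groups overlap for Glb1.

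Hyal1 encodes the lysosomal hyaluronidase that cuts hyaluronan and chondroitin inside the chain, ahead of the enzymes that work from the end. Both MPS VII groups lay below normal. The single probe, 3180097, read 2718, 2727 and 2563 in normal aorta, 956 and 1045 without dilatation and 973, 724 and 509 with dilatation. Every MPS VII aorta lay below every normal one, as MPS VII and normal were apart, in either direction, for 30.8% of all probes. The 2 MPS VII groups overlapped. The dilated mean was 735 ± 232 (SD, n = 3) and the mean without dilatation 1001 ± 62.8 (n = 2), against 2669 ± 92.1 (n = 3) in normal aorta. The log2 difference was -1.83 with dilatation (SE 0.20, limma adjusted p = 0.000813), rank 28 from the lowest of the 12913 probes. Without dilatation it was -1.37 (SE 0.22, limma adjusted p = 0.0119), a call that ended in 2 of 19 alternatives. In the first, without not dilated replicate 1, 1 array was left in that group and the log2 difference was -1.31. In the other, with the mean of adipocyte markers as a covariate, it was -0.91 (limma adjusted p = 0.295).

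Hexa encodes the alpha subunit of beta-hexosaminidase, which takes terminal hexosamines off glycosaminoglycans and gangliosides. It rose in dilated aorta. Probe 6370379 read 1774, 1696 and 1887 in normal aorta, 2572 and 2739 without dilatation and 4009, 4241 and 3151 with it. The 3 groups did not overlap, with the MPS VII aortas without dilatation between the other groups. Taken in pairs, groups were apart for 26% to 50.1% of all probes. The mean reached 213% of normal with dilatation and 149% without. The log2 difference in dilated minus normal was 1.06 (SE 0.14, limma adjusted p = 0.00173). In not dilated minus normal it was 0.56 and missed the threshold (SE 0.15, limma adjusted p = 0.0505), which it passed under 6 of 19 alternatives.

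Naglu encodes alpha-N-acetylglucosaminidase, which works on heparan sulfate alone. Its probe 3610768 read 216, 223 and 220 in normal aorta, 299 and 260 without dilatation and 388, 407 and 281 with it. All 5 MPS VII values lay above the 3 normal values, and the MPS VII groups overlapped. MPS VII and normal values were apart, in either direction, for 30.8% of all probes. The log2 difference was 0.58 with dilatation (SE 0.15, limma adjusted p = 0.0234) and 0.29 without (SE 0.16, limma adjusted p = 0.259). The call with dilatation ended in 7 of 19 alternatives, among them without any 1 of the 3 normal replicates (limma adjusted p = 0.0544 to 0.0737), without dilated replicate 1 (limma adjusted p = 0.0634) or 2 (limma adjusted p = 0.0824) and with age in the fit (limma adjusted p = 0.0727).

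Ids and Glb1 did not pass in any comparison. Ids encodes iduronate-2-sulfatase, which removes a sulfate from heparan and dermatan sulfate, and its bright probe 7610273 read 2343, 2364 and 2927 in normal aorta, 1800 and 2051 without dilatation and 2081, 2117 and 1237 with it. All 5 MPS VII values lay below the normal ones, the lowest in dilated replicate 3. For 30.8% of all probes the MPS VII and normal values were apart in 1 direction or the other. The log2 difference was -0.51 with dilatation (95% interval -0.98 to -0.04, limma adjusted p = 0.113) and -0.39 without (95% interval -0.91 to 0.13, limma adjusted p = 0.282). With age in the fit the first was -0.82 and passed (limma adjusted p = 0.0093). Glb1 encodes beta-galactosidase, which acts on keratan sulfate and gangliosides. Probe 3140047 read 585, 494 and 614 in normal aorta, 522 and 683 without dilatation and 876, 701 and 585 with it. The groups overlapped, and the log2 difference was 0.31 with dilatation (95% interval -0.07 to 0.70, limma adjusted p = 0.219) and 0.08 without (95% interval -0.35 to 0.51, limma adjusted p = 0.801).

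Sgsh, the sulfamidase of heparan sulfate, and Arsb, the sulfatase that acts on N-acetylgalactosamine in dermatan and chondroitin sulfate, could not be measured. The Sgsh probe 4810441 lay between -5.82 and 25.8 and passed background on 1 array, not dilated replicate 2. The Arsb probe 5130390 lay between 9.06 and 26.3 and passed on 1 array, normal replicate 2. Ids probes 1010368 and 3370719 lay between -17.4 and 20.7 and passed on 0 arrays, so for these 4 probes only the background bound of 25.6 holds and no fold is given.

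Over the 7 probes tested, 4 passed in dilated minus normal, 2 higher and 2 lower, where 19.4% of all probes passed (9.68% higher and 9.7% lower). In not dilated minus normal 2 passed, both lower, where 10.4% of all probes passed (5.53% higher and 4.86% lower). Against the mean of both MPS VII groups, 4 passed (Gusb, Hyal1, Hexa and Naglu), where 23.8% of all probes did (11.8% higher and 12% lower). Groups that did not overlap, as for Gusb and Hyal1, were found for 41% of all probes with dilatation, 50.1% without and 30.8% with the MPS VII mice together. The log2 differences of the mean of both MPS VII groups from normal were -2.48 for Gusb (limma adjusted p = 2.61e-05), -1.60 for Hyal1 (limma adjusted p = 0.00116), 0.81 for Hexa (limma adjusted p = 0.00364) and 0.43 for Naglu (limma adjusted p = 0.0411), where the Naglu call ended in 12 of 19 alternatives. These comparisons share the normal arrays, and the third combines the first pair. The median log2 difference over the 7 probes was -0.07 with dilatation and -0.19 without, beside -0.04 and -0.03 over all probes.

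**Figure D2:**
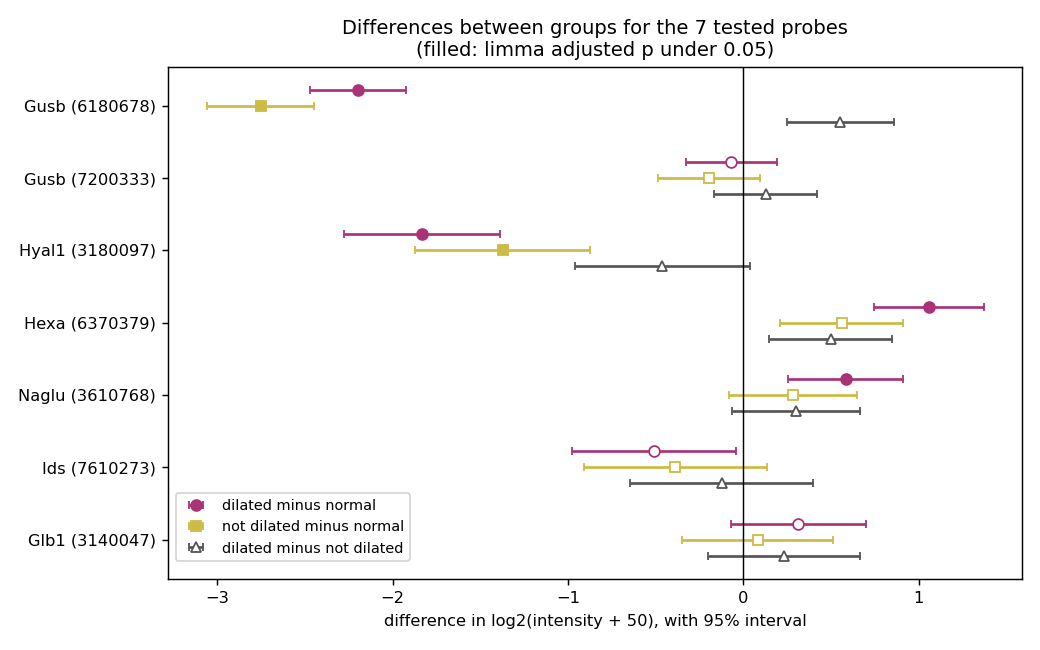
Difference in log2(intensity + 50) with its 95% interval (horizontal) for the 7 tested probes (vertical), with circles for dilated minus normal, squares for not dilated minus normal and triangles for dilated minus not dilated. Filled symbols have a limma adjusted p under 0.05; these are Gusb probe 6180678 and Hyal1 in both comparisons with normal and Hexa and Naglu in dilated minus normal.

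Dilated and not dilated MPS VII aortas were also compared, as 3 arrays against 2. The dilated mice were 7.8, 9.1 and 6 months old and the others 5.8 and 6.7. Widening and age therefore cannot be fully told apart in this comparison. By limma 0 of the 7 probes passed, and 0 of all 12913 did (0%). At an unadjusted p under 0.05 there were 2 of the 7 probes and 1167 of all probes (9.04%). Those 2 were Gusb, higher with dilatation by 0.55 (95% interval 0.25 to 0.86, limma adjusted p = 0.318), and Hexa, higher by 0.50 (95% interval 0.15 to 0.85, limma adjusted p = 0.417). For both, the 3 dilated values lay above the 2 others, as the groups were apart for 26% of all probes. Hyal1 was lower with dilatation by a log2 difference of -0.46 (95% interval -0.96 to 0.04) and Naglu higher by 0.30 (95% interval -0.07 to 0.66).

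The genes on either side of Gusb on chromosome 5 did not pass in either comparison with normal. Vkorc1l1, the gene before it, averaged 722 in normal aorta, 784 with dilatation (limma adjusted p = 0.767) and 763 without (limma adjusted p = 0.912). Asl, argininosuccinate lyase, the gene after it, averaged 47.0, 41.1 (limma adjusted p = 0.707) and 52.7 (limma adjusted p = 0.743). Of the 8 nearest measured genes, 4 on each side, 2 passed with dilatation and 0 without, beside 20.1% and 10.3% of all genes. Shares and medians over all genes use 10040 entries. Each entry is the brightest tested probe of 1 of 8955 genes, or 1 tested probe without a symbol. Tpst1, which sulfates tyrosines, fell from 3076 to 1821 (log2 difference -0.75, limma adjusted p = 0.016), and Rabgef1, a regulator of endosomal Rab proteins, went from 2109 to 1571 (log2 difference -0.42, limma adjusted p = 0.0399), a call that ended in 13 of 19 alternatives.

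Around Hyal1 on chromosome 9, the fall was shared by 1 neighbour. Naa80, which acetylates actin and whose gene overlaps Hyal1 in the gene table, went from 774 in normal aorta to 386 with dilatation (log2 difference -0.95, limma adjusted p = 0.00897) and 355 without (log2 difference -1.03, limma adjusted p = 0.02, ended in 4 of 19 alternatives). Whether the 2 probes read separate transcripts was not tested. Hyal2, the membrane-anchored hyaluronidase on the other side, was at 2178 in normal aorta, 2011 with dilatation (limma adjusted p = 0.507) and 2040 without (limma adjusted p = 0.653). Of the other neighbours, Gnai2, an inhibitory G protein subunit, rose with dilatation from 1207 to 1841 (log2 difference 0.59, limma adjusted p = 0.0217), and the remaining 5 of the 8 did not pass in either comparison. That made 2 of 8 with dilatation and 1 of 8 without, beside the same 20.1% and 10.3%.

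**Figure D3:**
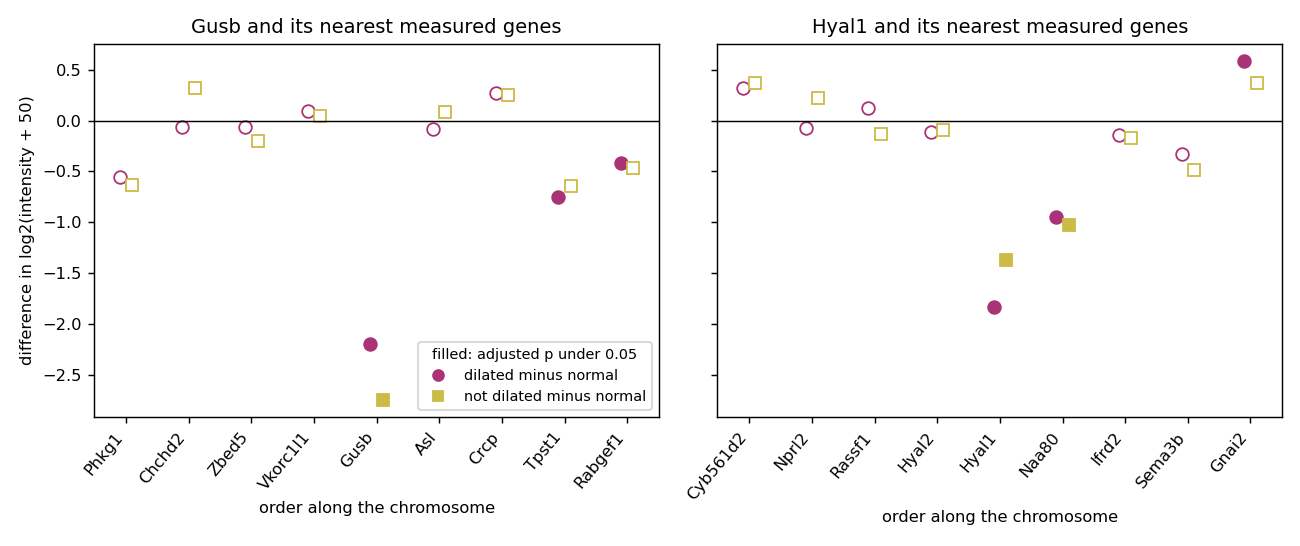
Difference in log2(intensity + 50) (vertical) for Gusb, Hyal1 and the 4 nearest measured genes on each side in chromosomal order (horizontal), with circles for dilated minus normal, squares for not dilated minus normal and filled symbols for a limma adjusted p under 0.05. Vkorc1l1 and Asl, on either side of Gusb, lie between -0.09 and 0.09 while Gusb lies at -2.20 and -2.75, Tpst1 lies at -0.75 and -0.64, and Naa80 is the neighbour of Hyal1 that lies near -1 in both.

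The rest of the pathway was read from 6 gene lists, each gene by its brightest tested probe. Over these lists 17 genes passed with dilatation, of which 7 passed without normal replicate 1 and 0 with the adipocyte covariate (mean of the adipocyte markers). Without dilatation 6 passed, and these calls ended in 9 of 19 alternatives for Ctsa, 10 for Psap, 3 for Ext1, 6 each for Hs3st3a1 and Csgalnact1, and 4 of 18 for Has3. Of 14 further enzymes of glycosaminoglycan breakdown, 6 were measurable, of which 2 were higher and 0 lower with dilatation and 0 passed without, where 20.1% (9.81% higher and 10.3% lower) and 10.3% (5.01% higher and 5.32% lower) of all genes did. The 2 were Hpse, the heparanase that cuts heparan sulfate inside the chain, and Arsa, whose main substrate is a sulfated lipid rather than a glycosaminoglycan. Hpse did not reach the background bound on any normal array and read 45.0, 39.7 and 46.9 with dilatation, at least 1.24-fold higher (limma adjusted p = 0.0137). Arsa went from 646 ± 47.6 to 893 ± 97.8 (log2 difference 0.43, limma adjusted p = 0.0432), a call that ended in 13 of 19 alternatives. Idua, the iduronidase lost in MPS I, averaged 495 in normal aorta, 439 with dilatation (limma adjusted p = 0.483) and 432 without (limma adjusted p = 0.558). The median log2 difference of the 6 was 0.25 with dilatation, beside -0.05 over all genes.

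Of 17 genes for enzyme partners, sorting and lysosomal control, 14 were measurable, and 5 were higher and 1 lower with dilatation. Over all genes, 9.81% were higher and 10.3% lower. The 4 largest rises were those of Ctsa, Psap, Neu1 and Gm2a. Ctsa, the protective protein that holds Glb1 and Neu1 in a complex, read 26.7, 66.0 and 24.2 in normal aorta, 102 and 120 without dilatation and 90.7, 115 and 165 with it (limma adjusted p = 0.0142 with dilatation and 0.0444 without). Psap, the precursor of the saposins that present lipids to lysosomal enzymes, went from 10606 ± 1044 to 18886 ± 1319 (log2 difference 0.83, limma adjusted p = 0.00336) and to 15614 ± 752 without dilatation (log2 difference 0.56, limma adjusted p = 0.0377). Neu1, the lysosomal sialidase, rose by 0.57 on the log2 scale with dilatation (limma adjusted p = 0.00878), and Gm2a, the activator that Hexa needs for gangliosides, by 0.50 (limma adjusted p = 0.024). The gene that fell was Nagpa, which uncovers the mannose-6-phosphate tag in the Golgi, at 121 in normal and 84.2 in dilated aorta (limma adjusted p = 0.047, ended in 14 of 19 alternatives). M6pr and Igf2r, the receptors for that tag, differed from normal by 0.05 and 0.33 on the log2 scale with dilatation (limma adjusted p = 0.758 and 0.145), and the transcription factor Tfe3 averaged 253 in both groups (limma adjusted p = 0.990).

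A list of extracellular hyaluronan handling and heparan sulfate editing had 4 measurable genes of 9, of which 2 were higher and 0 lower with dilatation. The shares over all genes were 9.81% higher and 10.3% lower. Stab1, a scavenger receptor, went from 169 ± 28.8 to 659 ± 181 with dilatation (log2 difference 1.67, limma adjusted p = 0.00136). Lyve1, the lymphatic hyaluronan receptor, went from 187 to 361 (log2 difference 0.75, limma adjusted p = 0.0427, ended in 10 of 19 alternatives). Cd44 read 332, 342 and 662 with dilatation against 264 to 274 in normal aorta and did not pass (limma adjusted p = 0.128). Sulf1, which trims sulfates from heparan sulfate outside the cell, averaged 2263 in normal and 2282 in dilated aorta (limma adjusted p = 0.923). None of the 4 passed without dilatation, and their median log2 differences were 0.66 and -0.27.

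Of 23 measurable genes in the 3 synthesis lists, 5 were lower and 2 higher with dilatation, beside 10.3% lower and 9.81% higher over all genes. In the list of 10 genes for hyaluronan synthesis and the linker of the sulfated chains, 7 were measurable, 1 of which was higher and 1 lower with dilatation. Has3, a hyaluronan synthase, read 58.0, 82.6 and 36.5 in normal aorta and lay below background in all 5 MPS VII aortas, at least 1.42-fold lower (limma adjusted p = 0.00442 with dilatation and 0.0193 without). Xylt2, which starts the chain on the core protein, rose from 77.8 to 133 with dilatation (limma adjusted p = 0.0182). Has1 was at 44.4, 34.3 and 237 with dilatation and above background on 1 of 3 normal arrays, and did not pass (limma adjusted p = 0.102).

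Of 21 heparan sulfate synthesis genes, 10 were measurable, and 2 were lower and 0 higher in each comparison with normal. Over all genes, 10.3% were lower and 9.81% higher with dilatation, and 5.32% lower and 5.01% higher without. Ext1, a subunit of the polymerase, read 4707, 5162 and 4141 in normal aorta, 2058 and 2880 without dilatation and 3134, 2806 and 2791 with it. Every MPS VII value lay below every normal one, and MPS VII and normal arrays were apart, in either direction, for 30.8% of all probes. The log2 difference was -0.67 with dilatation (limma adjusted p = 0.018) and -0.92 without (limma adjusted p = 0.0182). Hs3st3a1, a sulfotransferase, fell by 0.76 on the log2 scale with dilatation (limma adjusted p = 0.00995) and by 0.74 without (limma adjusted p = 0.0283). The partner of Ext1 in the polymerase, Ext2, had -0.12 and -0.23 and did not pass.

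Of 16 chondroitin and dermatan sulfate synthesis genes, 6 were measurable, and 1 was higher and 2 lower with dilatation, beside 9.81% higher and 10.3% lower over all genes. Chst3, which sulfates chondroitin, went from 412 ± 47.9 to 158 ± 92.6 (log2 difference -1.25, limma adjusted p = 0.016), and Csgalnact1, which starts the chondroitin chain, from 152 ± 43.7 to 68.8 ± 9.79 (log2 difference -0.74, limma adjusted p = 0.0194). Csgalnact1 also fell without dilatation (log2 difference -0.83, limma adjusted p = 0.0329). Chst15, another chondroitin sulfotransferase, rose by 0.81 on the log2 scale with dilatation (limma adjusted p = 0.0337).

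**Figure D4:**
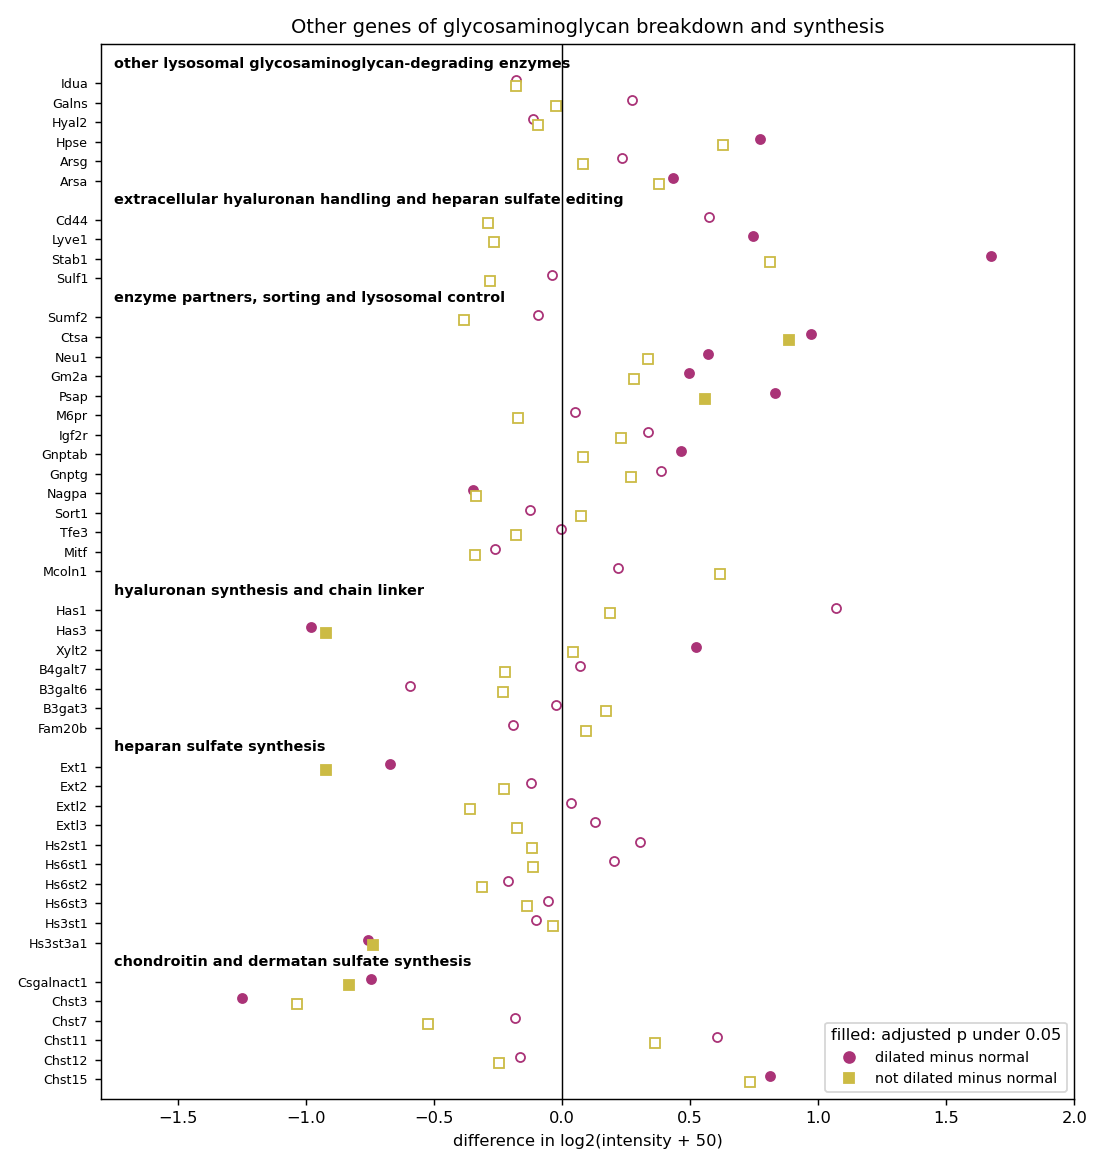
Difference in log2(intensity + 50) (horizontal) for the measurable genes of 6 lists of glycosaminoglycan breakdown and synthesis (vertical), with circles for dilated minus normal, squares for not dilated minus normal and filled symbols for a limma adjusted p under 0.05. With dilatation Stab1 has the highest value, 1.67, and Chst3 the lowest, -1.25. For Hpse, Has3, Galns, Mitf, Hs6st2 and Chst11 the plotted fit depends on the offset, since at least 1 group had no array above background.

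Markers of several other cell types differed between the groups. Over all genes, 9.81% were higher and 10.3% lower with dilatation, to be read beside each count below. Of 13 measurable macrophage markers of 18, 11 were higher and 0 lower with dilatation. Cd163 went the other way, with means of 355 in normal aorta, 190 without dilatation and 223 with it. It did not pass with dilatation (limma adjusted p = 0.0666) and was lower in the MPS VII mean (limma adjusted p = 0.0283). The summed intensity of the 13 was 5608 to 10196 in normal aorta, 16536 and 27259 without dilatation and 36115 to 52093 with it. Ms4a7 and Fcgr1 had normal means of 18.4 and 11.5, below the bound. Over the 3 groups, the means of Hexa, Naglu and Glb1 rose in the order of the macrophage sums: normal, not dilated, dilated. Within the 3 dilated aortas, replicate 3 had the highest macrophage sum and the lowest Hexa, Naglu and Glb1 values. Of the 2 not dilated aortas, replicate 2 had the higher sum, the higher Hexa and Glb1 values and the lower Naglu value. In the 3 normal aortas, replicate 2 had the highest sum, the lowest Hexa and Glb1 values and the highest Naglu value. Lyz1 was the largest part of the sum, with a mean of 26405 with dilatation. A link between the sum and the enzymes was not tested. Of 10 smooth muscle markers 8 were lower and 1, Eln, higher, with sums of 102163 to 129560 in normal, 73625 and 97560 without dilatation and 53382 to 98293 with it, so the labelled tissue's markers were present in every aorta. Among 8 fibroblast markers 3 fell and 1 rose with dilatation (sums 36264 to 36965 in normal, 23905 and 31659 without dilatation, 29157 to 36304 with it), and among 8 endothelial markers 4 rose and 0 fell (2156 to 3250, 4064 and 4495, 3324 to 6979). Of 7 measurable adipocyte markers of 10, 5 were higher and 0 lower with dilatation, with sums of 8929 to 20634 in normal aorta, 32976 and 54351 without dilatation and 35850 to 51673 with it. Of 4 measurable erythroid markers of 6, 1 was higher and 1 lower with dilatation, with sums of 35014 to 49571 in normal, 42578 and 65784 without dilatation and 10795 to 43841 with it. The higher one, Hbb-b2, a beta globin with a near-identical copy, was below 0 on all 3 normal arrays and read 581 and 220 without dilatation and 71.8, 119 and 205 with it (limma adjusted p = 0.00357 without dilatation and 0.00243 with it). The lower one was Slc4a1, the red cell anion exchanger (log2 difference -1.10, limma adjusted p = 0.0439). Of 4 measurable cardiomyocyte markers of 7, 0 passed by limma in either comparison, with sums of 73.4 to 83.4 in normal, 111 and 242 without dilatation and 39.8 to 215 with it.

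With the mean of the adipocyte markers as a covariate, Gusb passed in both comparisons with normal (limma adjusted p = 0.00942 with dilatation and 0.00811 without). Hyal1 did not pass without dilatation (log2 difference -0.91, limma adjusted p = 0.295). With dilatation Hyal1, Hexa and Naglu did not pass, nor did Tpst1, Rabgef1, Naa80 and Gnai2. The 3 enzymes stood at log2 differences of -1.37, 1.23 and 0.74 (SE 0.31, 0.25 and 0.26, limma adjusted p = 0.0837, 0.0614 and 0.208). Without the covariate these were -1.83, 1.06 and 0.58 (SE 0.20, 0.14 and 0.15). The adipocyte marker sums did not overlap between normal and MPS VII aortas, so this covariate and the groups cannot be fully told apart. Over all probes 132 passed in place of 2503. The part of macrophage, smooth muscle, fibroblast, endothelial, erythroid and cardiomyocyte RNA in the values of the enzymes was not tested, and in whole tissue fewer cells of a type and less RNA per cell cannot be told apart.

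The genes whose log2 values followed each enzyme most closely over the 8 arrays were taken by Pearson's r among 8954 named genes. The r is a description only, since all points share the arrays and the 3 groups. For Gusb these were Cald1, the actin-binding caldesmon (r = 0.992), Noxo1 (0.987), Olfml2b (0.986), Nup160 (0.983) and Actl6b (0.983). Of these, Olfml2b went from a mean of 3334 in normal aorta to 953 with dilatation and 831 without. Hyal1 was followed by Hspa2, a heat shock protein (0.993), Gnaz (0.993) and Ppp1r1b (0.992), and Ppp1r1b went from 485 to 39.3 with dilatation and 116 without. Hexa was followed by Rerg (0.989), the prion protein gene Prnp (0.987) and Mfsd1 (0.982), with Prnp at 5519 in normal, 12141 with dilatation and 8670 without. Naglu was followed by Tpp1, a lysosomal peptidase (0.962), Mdk (0.961) and Lamp1 (0.956). The closest genes to Ids were Bcl2 (0.984), Tlcd5 (0.980) and Evc2 (0.979), and to Glb1 Serf2 (0.975), Bmp4 (0.955) and Tmem86a (0.952).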

How the data were processed

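Processed intensities of 25697 probes, deposited by the authors on a linear scale, were used for 8 arrays. GenomeStudio and Partek are named without a role, per the submitters' processing notes. The values show background subtraction (27.8% to 28% lie below 0 on each array) and a common distribution (sorted values differ by at most 0.94 units), so a change in total RNA cannot be seen. Array medians lie between 17.75 and 17.99, 45% to 45.2% of probes are above background, and arrays of 1 group correlate at 0.971 to 0.988. Another table, of 16 columns that match no single sample, was left out. The number of arrays limits the precision.

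The background bound of 25.6 is the one-sided 0.01 bound of a noise SD of 11 taken from values below 0. A mean per group was fitted to log2(intensity + 50) for the 12913 probes above it on at least 2 arrays, in limma 3.58.1 (R 4.3.3), where the residual df were 5 and the prior df 4.26, and the fit was tested on simulated data. An exact permutation test could not go below p = 0.1 for 3 arrays against 3 or 2. At least N-fold compares mean log2 values, with the dim group at the higher of the bound and its own value. Lists were matched by gene identifier, and list genes past the threshold are named, at most 4 per direction. The members and lists were chosen with earlier results of these data known, and the neighbours were added after them. The titles number the mice in each group. Deviations from the group mean correlated at -0.192 to 0.320 over 7 same-numbered pairs and at -0.320 to 0.165 over 14 other pairs. In a group of 2 the deviations mirror each other, so these values do not show whether the numbers pair the mice. All 23141 named probes carry 1 symbol, and 2556 carry none.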

Additional observations from a re-analysis of the deposited data

How the results depend on the processing

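Over 19 alternatives, 8 of them leaving out 1 mouse, the Gusb call (probe 6180678) held in each comparison with normal, with log2 differences of -2.37 to -1.99 with dilatation and -3.03 to -2.44 without. Hyal1 with dilatation (-2.05 to -1.37) and Hexa with dilatation (0.90 to 1.23) lost the call with the adipocyte covariate only. The cause was not tested. The adipocyte marker sums did not overlap between normal and MPS VII aortas. In that fit the SE was 0.31 for Hyal1 and 0.25 for Hexa with dilatation, against 0.20 and 0.14 in the main fit. With that covariate 1 enzyme probe passed in each comparison with normal, and over all probes 132 passed with dilatation, 2 without, 60 in the MPS VII mean and 1 in dilated minus not dilated. Of 17 list genes past the threshold with dilatation, 0 passed with it. Array quality weights gave 4154 probes with dilatation, 2104 without and 3 in dilated minus not dilated. In that last comparison 4 passed with no filter and 21 with sex as a covariate.

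Leaving out 1 mouse gave 1277 to 2317 probes with dilatation (fewest without normal replicate 1), 104 to 1955 without (fewest without not dilated replicate 1), 0 to 3 between the MPS VII groups and 1461 to 3032 in the MPS VII mean (fewest without normal replicate 3). Enzyme probes passing were 3 to 4, 1 to 3, 0 and 3 to 4. With 1 array left in a group, that array is assumed to vary like the others. With the replicate number as a block the counts were 2362, 1108, 0 and 2892, and the enzyme counts 4, 2, 0 and 3, where Naglu in the MPS VII mean no longer passed (limma adjusted p = 0.0666). Whether the numbers pair the mice cannot be told from these data. Naglu in the MPS VII mean passed in 7 of 19 alternatives. Signal over background limits Sgsh, Arsb and the dim Gusb and Ids probes.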

Other observations

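Genes near other enzymes also differed with dilatation, and these were picked out after their values were seen. Atp6v0a1, a subunit of the proton pump that acidifies lysosomes and the gene before Naglu, went from a mean of 938 in normal aorta to 1557 with dilatation (log2 difference 0.70, limma adjusted p = 0.00442) and 1165 without (0.30, limma adjusted p = 0.144). Lhfpl2, the gene after Arsb, went from 161 to 438 with dilatation (log2 difference 1.21, limma adjusted p = 0.00167) and 222 without (0.36, limma adjusted p = 0.191). Thsd4, a matrix protein whose gene lies beyond Hexa, went from 869 to 302 with dilatation (log2 difference -1.43, limma adjusted p = 0.00356) and 449 without (-0.90, limma adjusted p = 0.0484). Each of the 3 calls with dilatation held in 18 of 19 alternatives and ended with the adipocyte covariate, where the log2 differences were 0.82 for Atp6v0a1 (limma adjusted p = 0.0997), 1.14 for Lhfpl2 (limma adjusted p = 0.112) and -1.18 for Thsd4 (limma adjusted p = 0.190). The Thsd4 call without dilatation ended in 11 of 19 alternatives.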
